A study of Mus musculus with 3 samples.

Results

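Gata1, Klf1, Tal1, Nfe2, Zfpm1, Lmo2, Ldb1 and Bcl11a were examined in the bone marrow (BM) of mice given LECT2. These 8 erythroid transcription factor genes were chosen by symbol, and all 8 had a row in the deposited tables, which hold 17559 rows with 17250 gene names. None of the 8 symbols had more than 1 row. BM cells of C57BL/6 mice aged 6 to 8 weeks were flushed from femur, tibia, pelvis and humerus after daily subcutaneous injection of recombinant mouse LECT2, made in Chinese hamster ovary cells, at 300 μg per kg for 3 or 5 days. The mice of 0 days carry no injection in the labels, and neither a vehicle nor the number of mice per library is given in the sources used here. There was 1 RNA-sequencing library for each of the 3 time points, so no difference described here has a replicate check, and no test between time points was made. Intervals are at the 95% level and describe counting error alone. They may be too narrow even for that, because reads that come from PCR copies are not separate molecules. Time is fully confounded with library, and a change with LECT2 and a difference between preparations cannot be told apart.

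Red cells are made in the BM from progenitors that switch on a small set of DNA-binding proteins. GATA1 binds GATA sequences and is required for erythroid and megakaryocytic maturation, and ZFPM1 (FOG1) is the cofactor that it recruits. TAL1 binds E-boxes together with E proteins and is held in a complex with GATA1 by LMO2 and by LDB1, a protein that also brings distant DNA sites together. KLF1 binds CACCC boxes and activates the adult beta-globin gene, NFE2 binds with a small MAF protein and acts in globin and platelet genes, and BCL11A silences fetal-type globin genes. Most of these genes are also used outside the erythroid line. GATA1 acts in megakaryocytes, mast cells, basophils and eosinophils, NFE2 in megakaryocytes, LMO2, LDB1 and TAL1 in stem and progenitor cells, and BCL11A in B cells and plasmacytoid dendritic cells. The labels name BM cells, whereas the supplement of the study speaks of BM mononuclear cells for the sequenced material; which preparation was used is not settled here, and it bears on every erythroid and neutrophil level. In bulk RNA, fewer cells of a type and less RNA per cell cannot be told apart.

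The promoters of 6 of the 8 genes, in 9 windows of 300 bases around RefSeq start sites (250 bases before and 50 after), were read from the RefSeq table of GRCm38.p6. No position is given in the deposited tables, and the processing notes of the submitters name another build, mm8. Gata1 spans 7959260 to 7978071 of chromosome X (minus strand), Klf1 lies on chromosome 8 from 84901928 to 84905291, Tal1 on chromosome 4 from 115056426 to 115071755 and Zfpm1 on chromosome 8 from 122282141 to 122337251, all 3 on the plus strand. Ldb1 spans 46031570 to 46045214 of chromosome 19 (minus strand), and Bcl11a lies on chromosome 11 from 24078056 to 24174123 on the plus strand (GENCODE M21, GRCm38; all 6 protein coding). Windows are shown for Gata1, Klf1 and Tal1, which had their lowest level in the same library, and for Zfpm1, which was higher at each later time. Ldb1 was lowest at 3 days as well, and its windows are not printed. Capitals mark matches on either strand to a GATA sequence (AGATAA or TGATAA) and to a CACCC box (CCNCNCCC, a short form of the site that KLF1 and related factors bind). For Tal1 the more upstream of 2 windows is shown.
Gata1, chrX:7967861-7968160, minus strand: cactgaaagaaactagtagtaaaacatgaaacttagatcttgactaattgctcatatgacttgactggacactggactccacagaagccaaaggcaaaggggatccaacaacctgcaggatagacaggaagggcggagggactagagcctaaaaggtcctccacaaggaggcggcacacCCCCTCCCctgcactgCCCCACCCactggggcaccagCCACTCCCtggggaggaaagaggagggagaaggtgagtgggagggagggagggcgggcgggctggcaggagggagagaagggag
Klf1, chr8:84901732-84902031, plus strand: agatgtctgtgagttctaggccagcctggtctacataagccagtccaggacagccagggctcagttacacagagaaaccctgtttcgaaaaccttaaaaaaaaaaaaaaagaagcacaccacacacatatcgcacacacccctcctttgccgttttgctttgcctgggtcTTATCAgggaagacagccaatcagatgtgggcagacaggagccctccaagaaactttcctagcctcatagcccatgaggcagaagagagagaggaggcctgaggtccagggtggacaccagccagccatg
Tal1, chr4:115056176-115056475, plus strand: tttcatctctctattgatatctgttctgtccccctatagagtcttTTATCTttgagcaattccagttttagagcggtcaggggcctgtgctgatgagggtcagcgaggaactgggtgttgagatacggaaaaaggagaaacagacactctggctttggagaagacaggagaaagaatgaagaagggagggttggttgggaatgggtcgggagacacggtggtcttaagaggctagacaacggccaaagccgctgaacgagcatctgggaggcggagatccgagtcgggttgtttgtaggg
Zfpm1, chr8:122281891-122282190, plus strand: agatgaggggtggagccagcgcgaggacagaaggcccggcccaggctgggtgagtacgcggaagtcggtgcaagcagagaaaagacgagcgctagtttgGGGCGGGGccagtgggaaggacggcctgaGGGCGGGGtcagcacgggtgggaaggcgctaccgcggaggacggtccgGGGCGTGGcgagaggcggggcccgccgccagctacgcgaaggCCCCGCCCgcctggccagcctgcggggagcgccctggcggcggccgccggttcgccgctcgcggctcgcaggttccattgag

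The 4 windows differed in these letters. The Gata1 window held 3 CACCC boxes and no GATA sequence. The Zfpm1 window held 4 matches to the CACCC pattern and no GATA sequence. The Klf1 and the upstream Tal1 windows each held 1 GATA sequence, on the opposite strand, and no CACCC box. Among windows not printed, the downstream Ldb1 window held 2 GATA sequences and 1 CACCC box. The other Ldb1 windows held 3 and 4 CACCC boxes and no GATA sequence. Of the 9 windows, 3 held a GATA sequence and 7 a CACCC box, where 18.6% and 49.5% of 32851 promoter windows of the same length did. An E-box (CANNTG, which reads alike on both strands) was found in 5 of the 9 windows and in 72.3% of all windows. The letters TGANTCA, the core of the NFE2 site, were found in 0 of the 9 windows and in 7.81% of all windows. A match is a run of letters and not a bound site. The CACCC pattern is loose and also takes in GC-rich letters such as CCCCGCCC. None of the 4 Zfpm1 matches held the letters CACCC themselves, and 73.7% of that window was G or C. The windows were not compared at equal shares of G and C.

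**Figure D1:**
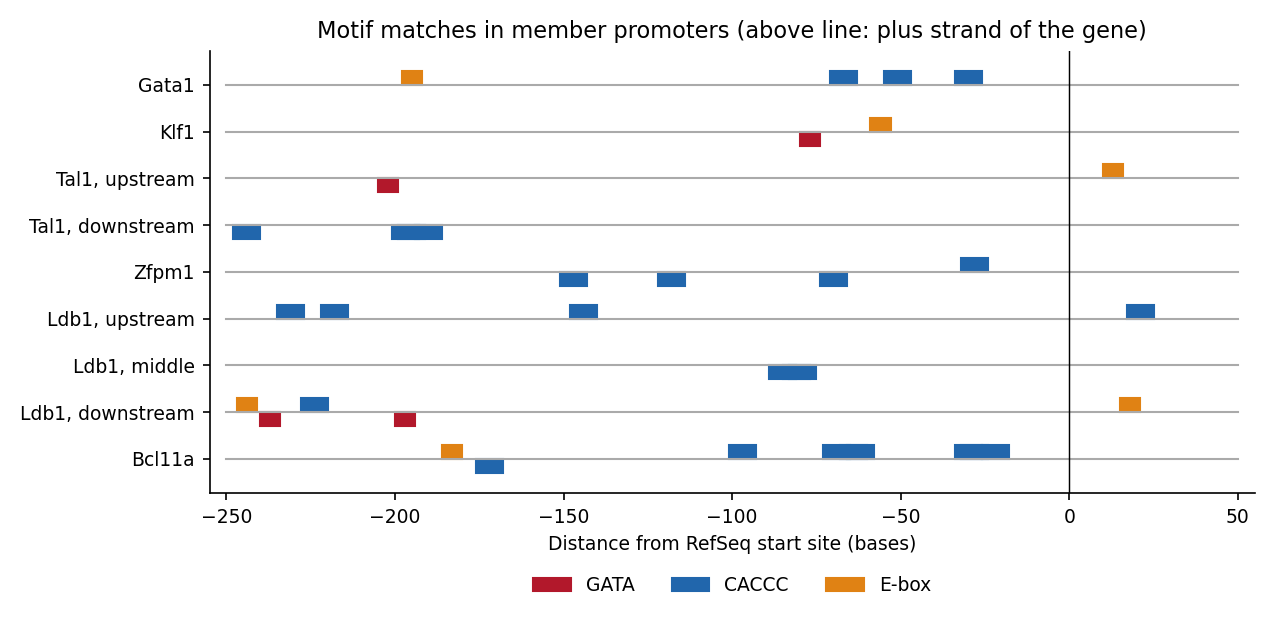
Positions of the matches in 9 promoter windows of 6 genes, in bases from the RefSeq start site, which is at 0. Red boxes are GATA sequences, blue boxes CACCC boxes and orange boxes E-boxes, drawn above the line for the strand of the gene and below it for the opposite strand (E-boxes, the same on both strands, are drawn above). Red boxes stand in 3 of the 9 windows and blue boxes in 7.

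Levels are given in RPKM, the reads of a gene scaled to its listed length and to the reads on all genes. Comparing levels between genes therefore rests on the listed lengths. The joined exons of GENCODE M21 cover 13175 bases for Bcl11a, listed at 6122, and 4606 for Ldb1, listed at 2295. Orders of level between genes are those of the listed lengths. The libraries held 15523952 (0 days), 15146983 (3 days) and 15514673 (5 days) reads assigned to genes. For a gene of 1 kilobase, 1 read was worth 0.0644 RPKM in the 0-day library. The 24 read counts of the 8 genes lay between 438 and 3736. The 3 libraries differed in composition. The share of reads on 11 late neutrophil markers went from 10.8% to 8.88% and 3.44%, and the median log2 ratio of 11144 genes averaging 1 RPKM or more was 0.10 at 3 days and 0.31 at 5 days, both against 0 days, and 0.25 between 5 and 3 days. Ratios also ran with gene length, from a median of −0.43 in the shortest decile of genes (up to 1050 bases) to 0.85 in the longest (from 5801 bases) at 5 days. For this reason ratios are also given after scaling with edgeR's TMM factors, which brings the median of all genes to 0.02, 0.01 and 0.03 in the same order, and after removal of the length trend (length correction).

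All 8 genes were expressed at moderate to high levels in every library. Nfe2 had the highest level per length, at 109 RPKM at 0 days, percentile 95.7 of all genes with reads. It was followed by Lmo2 at 56.4 RPKM, Ldb1 at 49.3, Klf1 at 26.5, Zfpm1 at 26.1, Gata1 at 22.4, Bcl11a at 19.9 and Tal1 at 15.0 RPKM, which stood at percentile 72.2. In this order only Klf1 and Zfpm1 did not differ beyond counting error as neighbours, with a ratio of 1.02 (0.92 to 1.12). At 3 days Klf1 and Bcl11a did not differ, with a ratio of 1.03 (0.93 to 1.13), and at 5 days Lmo2 and Ldb1 did not, with a ratio of 1.01 (0.95 to 1.08). On the listed lengths Nfe2 and Lmo2 were the highest and Tal1 the lowest of the 8 genes in all 3 libraries, and Zfpm1 moved ahead of Klf1 at 3 and 5 days.

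**Figure D2:**
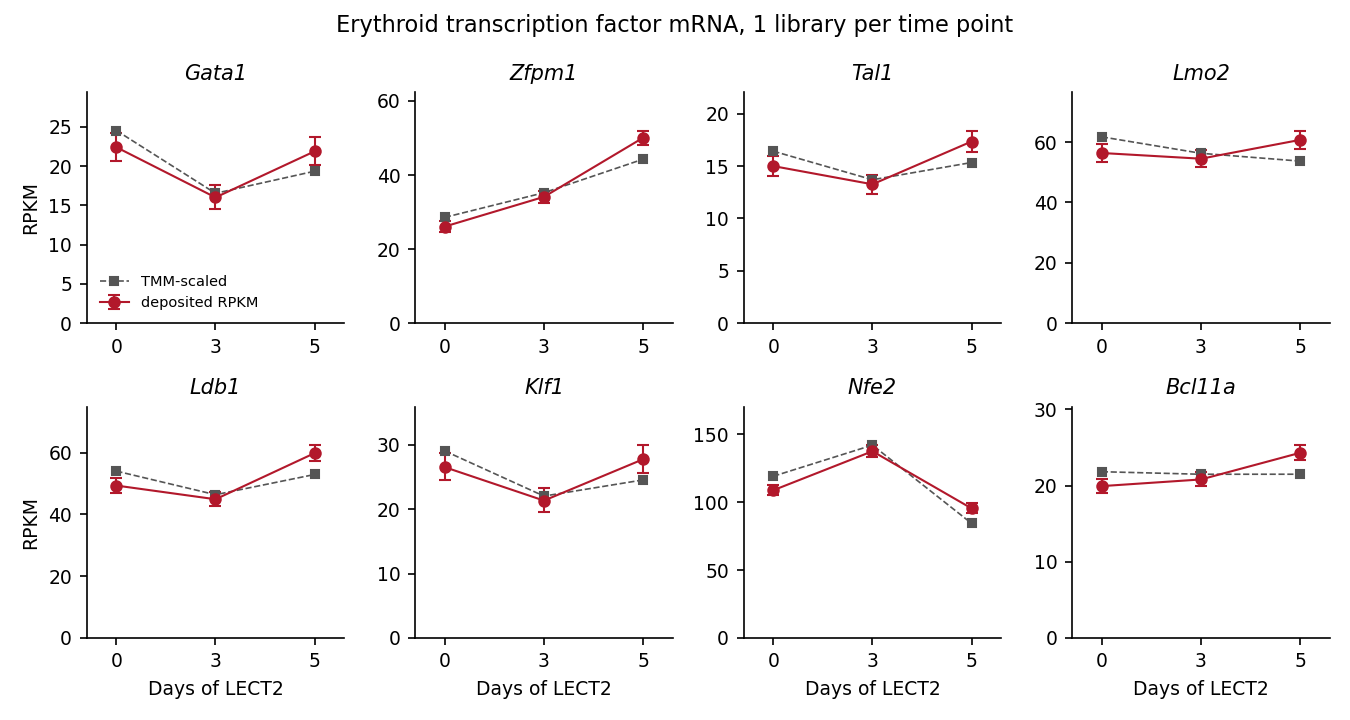
RPKM of the 8 genes at 0, 3 and 5 days, 1 library per time point, each axis starting at 0. Red circles are deposited values with 95% Poisson intervals of the read count, and grey squares are values after TMM scaling. Gata1, Klf1, Tal1 and Ldb1 were lowest at 3 days on both scales, Nfe2 was highest at 3 days, and Zfpm1 was highest at 5 days.

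None of the 8 genes differed 2-fold or more between any pair of time points. Among all genes that reached 1 RPKM in either library, 4.08% were higher by that much at 3 days against 0 days, and 2.41% were lower by that much. At 5 days against 0 days these shares were 15.5% and 5.91%, and between 5 and 3 days they were 1.95% and 3.45%. With a limit of 1.5-fold, 1 of the 8 genes, Zfpm1, was higher at 5 days against 0 days, as were 34.5% of all genes. The median log2 ratio of the 8 genes was −0.09 at 3 days, 0.16 at 5 days and 0.38 between 5 and 3 days, against 0.10, 0.31 and 0.25 for all genes. The comparisons share libraries, so they are not independent of each other. After TMM scaling the medians were −0.18, −0.15 and 0.16.

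Gata1, the defining erythroid and megakaryocytic factor, was lower at 3 days than at either other time. It had 22.4 RPKM (20.7 to 24.2) at 0 days, 16.0 (14.5 to 17.6) at 3 days and 21.9 (20.2 to 23.7) at 5 days, from 628, 438 and 613 reads. The interval at 3 days did not overlap the other two, and those of 0 and 5 days overlapped. The log2 ratio was −0.48 (−0.66 to −0.31) at 3 days, at percentile 12.8 of all genes, and −0.03 (−0.20 to 0.13) at 5 days. At 3 days it was −0.57 after TMM scaling and −0.39 after length correction. It was the lowest of the 8 genes at 3 days with the deposited RPKM and TMM scaling, but not after length correction, when Tal1 and Bcl11a were lower. At 5 days it was −0.34 (−0.50 to −0.18) after TMM scaling, so that the comparison of 0 and 5 days depended on the scaling.

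Klf1, the activator of adult beta-globin, was also lowest at 3 days, with 26.5, 21.3 and 27.8 RPKM at the 3 times. For Klf1 the log2 ratio was −0.31 (−0.49 to −0.14) at 3 days and 0.07 (−0.09 to 0.23) at 5 days. With the length trend removed the value at 3 days was −0.14 (−0.32 to 0.03), which does not differ from 0 beyond counting error. At 5 days the sign depended on the scaling, with −0.24 after TMM scaling and 0.04 after length correction. The ratio of Klf1 to Gata1, 2 genes of similar length, does not depend on the library totals and was 1.19 at 0 days, 1.33 at 3 days and 1.27 at 5 days, and its log2 change was 0.17 (−0.08 to 0.42) and 0.10 (−0.13 to 0.33). After length correction the change was 0.25 at 3 days, with an interval just above 0 (0.003 to 0.50), and 0.19 (−0.04 to 0.42) at 5 days, so whether Klf1 differed from Gata1 at 3 days depended on the scaling.

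Tal1 had 15.0, 13.3 and 17.3 RPKM at the 3 times. Its lowest value was again that of 3 days, with a log2 ratio of −0.18 (−0.31 to −0.04) that was −0.49 (−0.63 to −0.36) after length correction. At 5 days the log2 ratio was 0.21 (0.08 to 0.34) with the deposited RPKM, −0.10 after TMM scaling and −0.38 after length correction, so its direction was not fixed by these data. Tal1 is a long gene, at 4161 bases, and genes of its length decile had a median of 0.58 at 5 days.

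The genes of the bridging proteins of the complex had small differences. Lmo2 had 56.4, 54.5 and 60.7 RPKM at 0, 3 and 5 days, with log2 ratios of −0.05 (−0.16 to 0.06) and 0.11 (0.00 to 0.21), and its sign differed among the scalings in each comparison. Ldb1 had 49.3, 44.9 and 59.8 RPKM, with log2 ratios of −0.14 (−0.24 to −0.04) at 3 days and 0.28 (0.19 to 0.37) at 5 days. The lower value of Ldb1 at 3 days kept its sign under TMM scaling (−0.22) and after length correction (−0.17), whereas at 5 days the values were −0.03 and 0.01. In GENCODE M21 the exons of Ldb1 share 177 bases with those of Pprc1 on the opposite strand, and reads of such a stretch cannot be assigned without strand.

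Zfpm1, which encodes the GATA1 cofactor, had the largest difference of the 8 genes with the deposited RPKM. After TMM scaling and after length correction the largest was that of Nfe2 between 5 and 3 days. Zfpm1 had 26.1 RPKM (24.7 to 27.5) at 0 days, 34.1 (32.5 to 35.7) at 3 days and 50.1 (48.2 to 52.0) at 5 days. These 3 intervals did not overlap, and each later library was higher. The log2 ratio was 0.38 (0.28 to 0.49) at 3 days and 0.94 (0.84 to 1.03) at 5 days, at percentile 82.7 of all genes. The 5-day value was 0.63 after TMM scaling and 0.44 after length correction, so that the size, but not the sign, depended on the scaling. There were 1.17 Zfpm1 transcripts per Gata1 transcript at 0 days, 2.13 at 3 days and 2.29 at 5 days on the RPKM scale. The log2 change of this ratio was 0.87 (0.66 to 1.08) at 3 days and 0.97 (0.78 to 1.16) at 5 days, and 0.10 (−0.10 to 0.30) between 5 and 3 days. After length correction it was 0.55 and 0.58 against 0 days. Relative to Klf1 the log2 change of Zfpm1 was 0.70 (0.50 to 0.90) and 0.87 (0.69 to 1.06), or 0.30 and 0.39 after length correction. Relative to Tal1 it was 0.56 (0.39 to 0.73) and 0.73 (0.57 to 0.89), or 0.65 and 0.82 after length correction.

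Nfe2 was the only one of the 8 genes with its highest value at 3 days under TMM scaling and with the deposited RPKM. It had 109 RPKM (105 to 113) at 0 days, 138 (133 to 142) at 3 days and 95.4 (91.8 to 99.1) at 5 days. These 3 intervals did not overlap. The log2 ratio was 0.34 (0.27 to 0.41) at 3 days and −0.19 (−0.26 to −0.11) at 5 days, and −0.53 (−0.60 to −0.46) between 5 and 3 days, at percentile 7.45 of all genes. The signs held under TMM scaling, with 0.25, −0.50 and −0.75, and after length correction, with 0.43, −0.30 and −0.76. Relative to Gata1, Nfe2 went from a ratio of 4.86 to 8.60 and 4.36.

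Bcl11a had 19.9, 20.8 and 24.3 RPKM at the 3 times. With the deposited RPKM the value at 3 days did not differ from 0 days beyond counting error (log2 ratio 0.06, −0.03 to 0.15), but after length correction it was lower (−0.40, −0.50 to −0.31). The value at 5 days was higher with the deposited RPKM (0.28, 0.20 to 0.37). After TMM scaling the 5-day value was −0.02 (−0.11 to 0.07) and after length correction it was −0.47 (−0.56 to −0.38). Bcl11a is the longest of the 8 genes, at 6122 bases, and genes of its length decile had a median of 0.85 at 5 days. Its exons share 190 bases with 4930538E20Rik on the opposite strand.

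**Figure D3:**
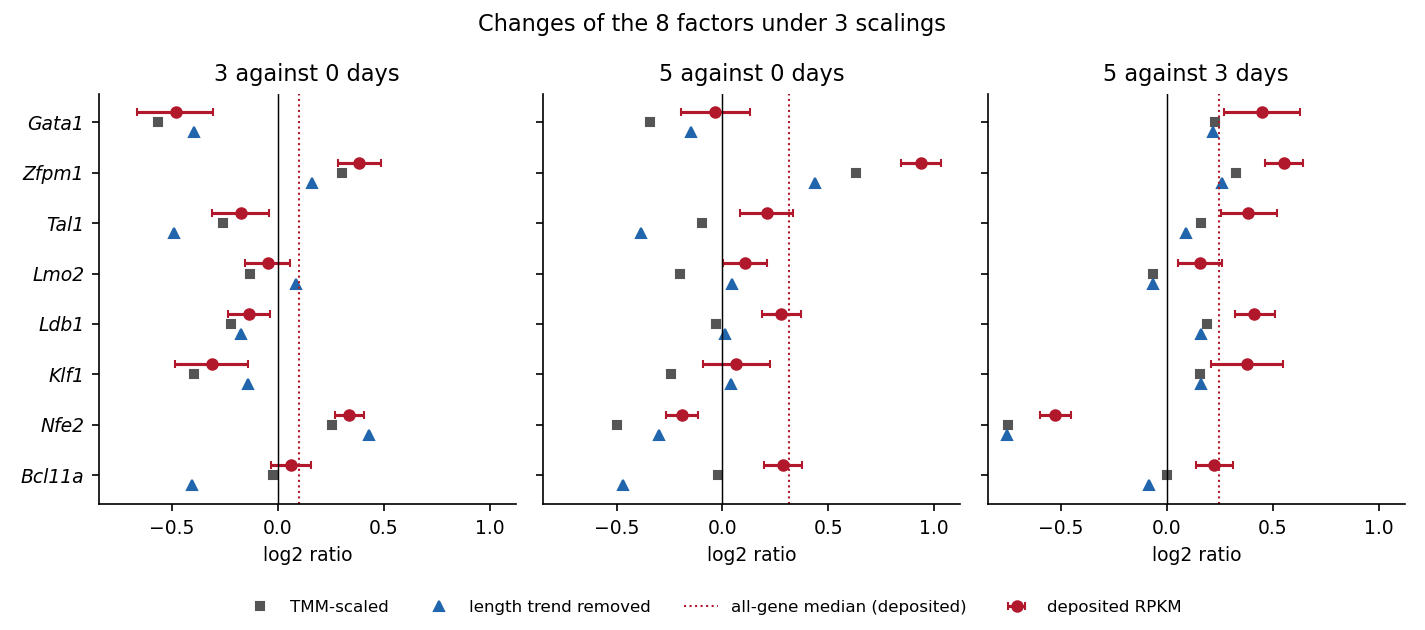
Log2 ratios of the 8 genes for the 3 pairs of time points. Red circles are deposited RPKM with 95% exact intervals of the read counts, grey squares TMM-scaled values, blue triangles values after length correction, and the dotted line is the median of all genes. Gata1, Klf1, Tal1 and Ldb1 were below 0 at 3 days under all 3, and Zfpm1 was above 0 in each comparison under all 3.

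The order of the 3 libraries was compared across scalings, which were the deposited RPKM, TMM factors, median-of-ratios factors, totals without the 100 most abundant genes, and removal of the length trend. With the deposited RPKM 5 of the 8 genes, Gata1, Klf1, Tal1, Lmo2 and Ldb1, had their lowest level at 3 days, as did 28.9% of all genes. For Gata1, Klf1, Tal1 and Ldb1 this held under all 5 scalings examined, as it did for 15.5% of all genes. Nfe2 was highest at 3 days under all 5, as were 9.66% of all genes, and Zfpm1 was higher at each later time under all 5, as were 20.4%. For Klf1 the step from 3 to 5 days had an interval that reached 0 after TMM scaling (0.16, −0.01 to 0.33) and after length correction (0.16, −0.01 to 0.33), and for Tal1 it did after length correction (0.09, −0.04 to 0.22).

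With the deposited RPKM Gata1 had the lowest 3-day ratio of the 8 genes, so the 7 others are higher relative to it by construction. The size of these changes is given as a description. The log2 changes at 3 days ran from 0.17 for Klf1 to 0.31 for Tal1, 0.35 for Ldb1, 0.44 for Lmo2, 0.55 for Bcl11a, 0.82 for Nfe2 and 0.87 for Zfpm1. At 5 days the interval lay above 0 for Zfpm1 (0.97), Bcl11a (0.32), Ldb1 (0.31) and Tal1 (0.24), and reached 0 for Lmo2 (0.14, −0.05 to 0.34), Klf1 (0.10) and Nfe2 (−0.16, −0.34 to 0.02). A ratio between genes of unequal length still carries the length trend. After length correction of both genes, chosen after seeing the data, 5 of the 7 genes were higher relative to Gata1 at 3 days and 4 at 5 days. Tal1 (−0.096 and −0.23) and Bcl11a (−0.01 and −0.32) then turned sign at both times, whereas Zfpm1 (0.55 and 0.58) and Nfe2 (0.82 and −0.15) kept theirs. All these values rest on the 438 Gata1 reads of the 3-day library or on the 628 and 613 of the others. The limit also holds for genes outside the 8. At 3 days the log2 ratio minus the median of all genes was −0.58 for Gata1 and −0.41 for Klf1. A gene at that median is therefore higher relative to them by as much. At 5 days these differences were −0.35 and −0.25. Spi1 (listed as Sfpi1), the myeloid factor that opposes GATA1, went from 8.62 to 15.5 and 9.84 transcripts per Gata1 transcript on the RPKM scale, a log2 change of 0.84 (0.65 to 1.03) at 3 days and 0.19 (0.02 to 0.36) at 5 days, or 0.99 and 0.36 after length correction. Fli1, a megakaryocytic factor that opposes KLF1, went from 1.96 to 3.01 and 2.20 per Klf1 transcript, a log2 change of 0.62 (0.43 to 0.81) and 0.17 (−0.01 to 0.34). After length correction this was 0.27 at 3 days and −0.26 at 5 days, with the sign turned at 5 days. Gata2, which GATA1 replaces during erythroid maturation, went from 1.45 to 1.61 and 1.29 per Gata1 transcript, with log2 changes of 0.15 (−0.06 to 0.36) and −0.17 (−0.36 to 0.03). After length correction they were −0.15 and −0.53, so that the sign at 3 days turned and the lower ratio at 5 days was larger.

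**Figure D4:**
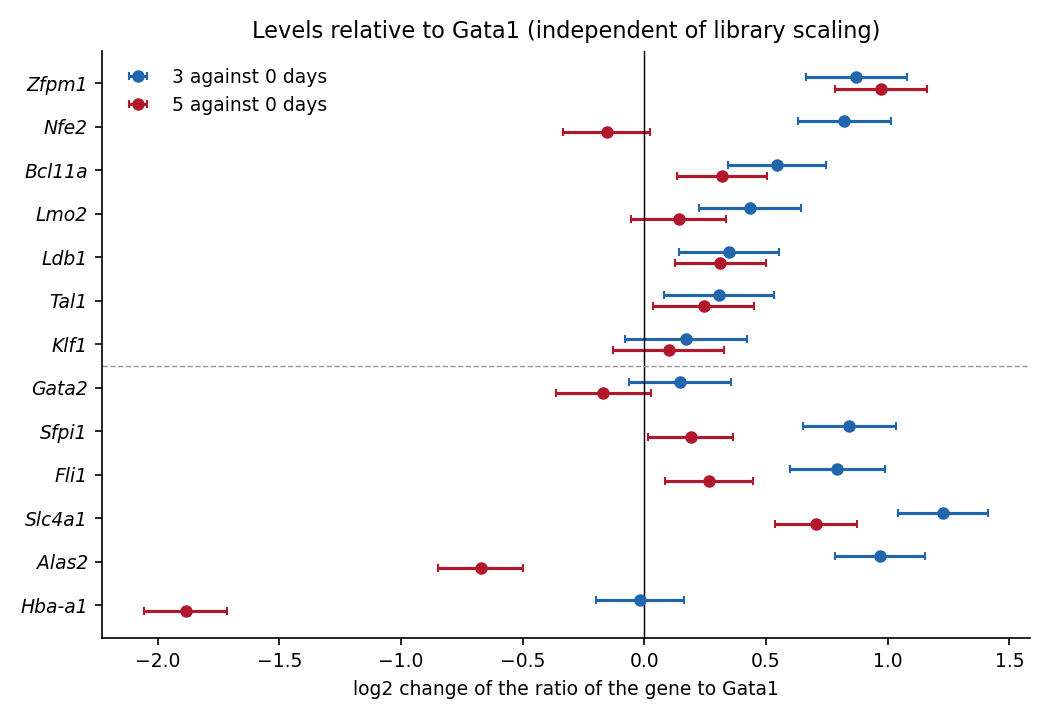
Log2 change of the ratio of each gene to Gata1, at 3 days (blue) and 5 days (red) against 0 days, with 95% exact intervals. Above the dashed line are the 7 other factors, and below it are Gata2, Sfpi1, Fli1 and 3 late erythroid genes. Zfpm1 lay at 0.87 and 0.97, and Hba-a1 lay at −0.02 at 3 days and −1.88 at 5 days. The plot has no length correction, after which Zfpm1 was at 0.55 and 0.58 and Hba-a1 at 0.47 and −1.19.

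The genes that work with the 8 factors were described from lists. Of 13 complex partners of GATA1, TAL1, LMO2 and LDB1, 12 had a mean of at least 1 RPKM, and their median was 0.17 (3 days) and 0.51 (5 days) on the log2 scale, or −0.18 and −0.04 after length correction. Of the 12, 10 were higher and 2 lower at 5 days, and 2 of the higher ones, Rcor1 and Ssbp4, reached 2-fold, which is 16.7% of the list beside 15.5% of all genes, while 0 of the lower ones did. After TMM scaling 1 was 2-fold higher, Rcor1, and 1 was 2-fold lower, Lmo4. After length correction 5 were higher and 7 lower. Tcf3, the E protein that pairs with TAL1, went from 69.3 to 81.7 and 109 RPKM, a log2 ratio of 0.65 at 5 days and 0.16 after length correction. Lyl1, the close relative of TAL1, went from 60.8 to 65.9 and 79.9 RPKM. Rcor1, a corepressor that joins the histone demethylase KDM1A to GFI1B, went from 4.82 to 15.4 and 23.1 RPKM, with log2 ratios of 1.65 and 2.24 that were 1.53 and 1.87 after length correction. Its partner Kdm1a had log2 ratios of 0.02 and 0.37, or −0.15 and −0.06 after length correction. Gfi1b had −0.30 and 0.41, or −0.21 and 0.29 after length correction. Lmo4, a relative of LMO2 that also binds LDB1, was lower, at 284, 209 and 160 RPKM. Tcf12 was counted near 0 in each library.

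Of 6 partners and relatives of NFE2, 1 was lower by 2-fold or more at both later times with the deposited RPKM, where 2.41% (3 days) and 5.91% (5 days) of all genes were. After length correction it was 0 of 6 at 3 days and 2 at 5 days. The 1 gene was Maff, a small MAF protein, with 15.2, 7.52 and 2.18 RPKM, and its log2 ratios after length correction were −0.91 and −2.85, the first short of 2-fold. The other small MAF genes were closer to their starting level at 3 days than at 5 days. Mafg had 35.3, 33.4 and 26.1 RPKM, and Mafk had 32.3, 31.4 and 20.4 RPKM, with a log2 ratio at 5 days of −0.66 that was −1.05 after length correction. Bach1, which competes with NFE2 for small MAF proteins, had 11.0, 17.9 and 18.7 RPKM, a log2 ratio of 0.76 at 5 days and 0.02 after length correction. The 11 listed subunits of the NuRD corepressor, which ZFPM1 and BCL11A recruit, were all measured. Their median log2 ratios were 0.12 (3 days) and 0.42 (5 days), or −0.05 and 0.14 after length correction. At 5 days 2 of the 11 (18.2%) were higher by 2-fold or more beside 15.5% of all genes, and 1 after TMM scaling or length correction. The most abundant of the 11 on the mean of all libraries, Hdac1, Mbd2 and Mta2, had log2 ratios of −0.15, 0.32 and 0.59 at 5 days. Gatad2b, named after its values were seen, had log2 ratios of 1.75 and 2.23, the highest of the list. Of 11 other erythroid regulators, 10 were higher and 1, Gata2, lower at 5 days with the deposited RPKM, with a median of 0.63. After length correction 7 were higher and 4 lower, with a median of 0.08. Foxo3, a factor of late erythroid maturation, went from 5.73 to 14.8 and 16.2 RPKM, and its log2 ratios of 1.36 and 1.48 were 1.21 and 1.08 after length correction. Myb, which keeps progenitors dividing, went from 89.8 to 114 and 139 RPKM, a log2 ratio of 0.63 at 5 days and 0.08 after length correction.

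Genes of late red cell maturation, which GATA1 and KLF1 activate, had values of several kinds. All 5 globin genes averaging 1 RPKM or more were lower by 2-fold or more at 5 days, as were 5.91% of all genes. The median log2 ratio of these 5 globin genes was −1.92 at 5 days and −0.32 at 3 days. Beta-s, the listed name of the adult beta-globin gene Hbb-bs, had 6999, 6491 and 2540 RPKM. Hba-a1, an alpha-globin gene, had 2253, 1591 and 596 RPKM, and reads of the near-identical globin copies may have been split between rows. Relative to Gata1, Hba-a1 had a log2 change of −0.02 (−0.20 to 0.16) at 3 days and −1.88 (−2.05 to −1.72) at 5 days, and Beta-s of 0.38 (0.20 to 0.56) and −1.43 (−1.59 to −1.26). After length correction Hba-a1 was at 0.47 and −1.19, and Beta-s at 0.82 and −0.80. With the length trend removed the globin median was 0.22 at 3 days and −1.34 at 5 days, so that only the lower level at 5 days kept its sign, with 4 of the 5 still 2-fold lower.

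Of 12 genes of heme synthesis, 5 were higher and 7 lower at 5 days, and none differed 2-fold with the deposited RPKM, whereas 1, Alas2, was 2-fold lower after TMM scaling. The split was 3 higher and 9 lower after TMM scaling and 2 higher and 10 lower after length correction, with medians of −0.43 and −0.25 beside −0.13 with the deposited RPKM. Alas2, the first enzyme of heme synthesis in erythroid cells and a GATA1 target, had 175, 244 and 107 RPKM. Relative to Gata1 its log2 change was 0.97 (0.78 to 1.15) at 3 days and −0.67 (−0.85 to −0.50) at 5 days. Of 16 red cell membrane genes, 3 were at least 2-fold higher at 3 days and 3 at 5 days, and 0 were lower by as much. The share of 18.8% stands beside 4.08% of all genes at 3 days and 15.5% at 5 days, and after length correction 0 of the 16 were 2-fold higher at 3 days and 1 at 5 days. Slc4a1, the anion exchanger band 3, had 109, 183 and 174 RPKM, and Aqp1, a water channel, had 38.5, 38.6 and 56.4 RPKM. The membrane list had a median of 0.48 at 5 days and of −0.05 after length correction. Bpgm, bisphosphoglycerate mutase, had 66.3, 98.7 and 29.0 RPKM. Alas2, Bpgm and Nfe2 each had their highest value at 3 days and lowest at 5 days. With the deposited RPKM so did Mmp8, Mmp9 and Cxcr2, late neutrophil markers named after their values were seen. Of the 11 late neutrophil markers, 3 were higher and 8 lower at 3 days. No link of Nfe2 to either kind of gene was tested. Over all 45 late erythroid genes averaging 1 RPKM or more, 26.7% were lowest and 28.9% highest at 3 days, where 28.9% and 13.6% of all genes were. After length correction these shares were 22.2% and 44.4%, beside 24.1% and 24.6% of all genes. The list median was −0.09 (3 days) and −0.03 (5 days) with the deposited RPKM, −0.17 and −0.34 after TMM scaling, and 0.04 and −0.24 after length correction. At 5 days 24 of the 45 were lower with the deposited RPKM, 30 after TMM scaling and 33 after length correction. The median of the 8 factors minus that of these genes was −0.003 at 3 days, 0.19 at 5 days and 0.45 between 5 and 3 days. Without the globin genes it was −0.12 at 3 days and 0.038 at 5 days, and after length correction it was −0.19 at 3 days. Of 8 receptors and surface proteins of erythroid progenitors, 6 were higher and 2 lower at 5 days, with a median of 0.18, whereas 4 were higher and 4 lower after length correction, with a median of −0.14. The most abundant, Cd24a and Cd44, were the 2 lower ones, at log2 ratios of −0.37 and −0.19. Tfrc, the transferrin receptor, had 66.9, 68.9 and 72.9 RPKM. Its log2 ratio of 0.12 at 5 days was −0.18 after TMM scaling and −0.53 after length correction. Itga4, an integrin chain, and Kit, the stem cell factor receptor, both named after their values were seen, had the highest log2 ratios of the list at 5 days, at 1.69 and 0.96, or 0.76 and 0.28 after length correction. Epor, the erythropoietin receptor, named after its values were seen, had 7.68, 6.24 and 9.06 RPKM, and its ratio to Gata1 did not change beyond counting error (0.19, −0.16 to 0.53, and 0.27, −0.04 to 0.59), with 0.18 and 0.26 after length correction.

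**Figure D5:**
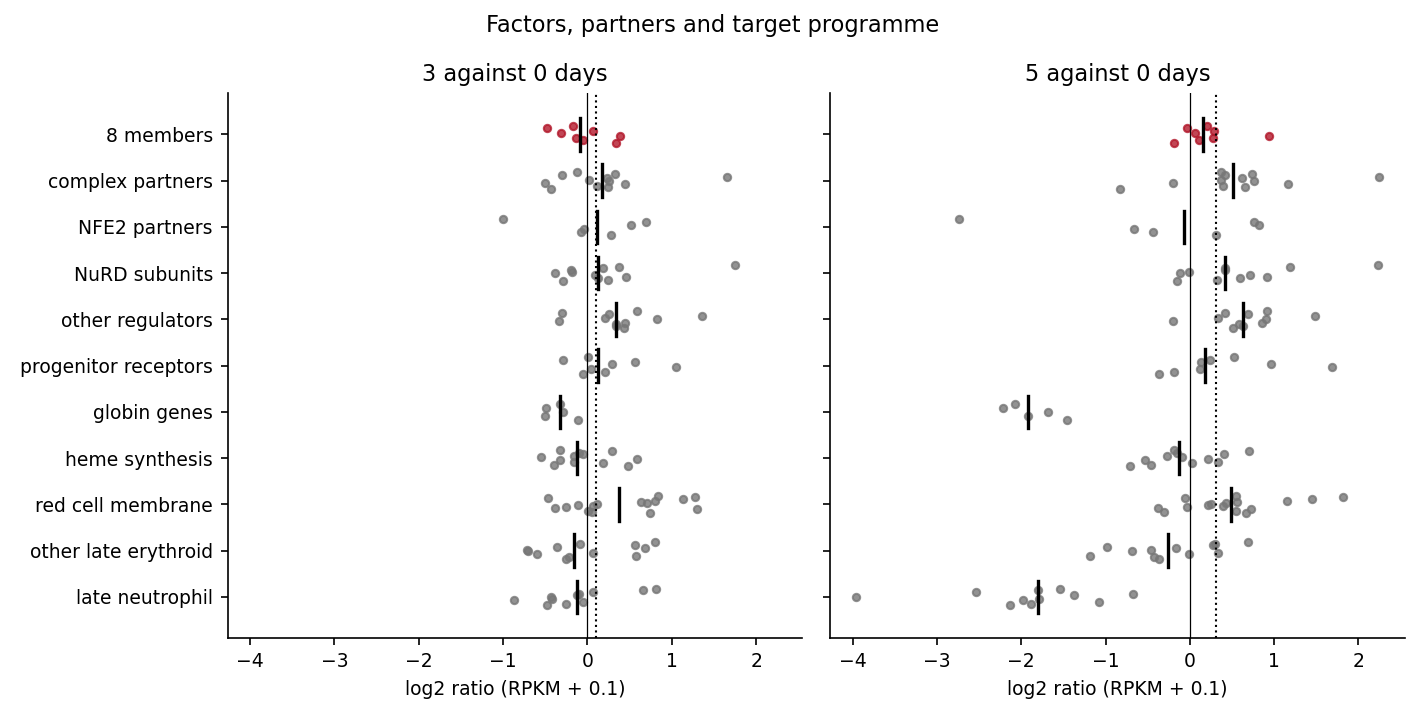
Log2 ratios at 3 and 5 days against 0 days for the 8 factors (red) and for genes of 10 lists (grey), each point a gene averaging 1 RPKM or more, with the list median as a bar and the median of all genes as a dotted line. The 8 factors lay between −0.48 and 0.94, and the 5 globin genes lay between −2.21 and −1.46 at 5 days.

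Markers of other cells that use these factors are given beside them, and their part in the values of the 8 genes was not tested. The 13 megakaryocyte and platelet markers summed to 59.1, 39.4 and 53.1 RPKM, lowest at 3 days as was Gata1. Of the 10 averaging 1 RPKM or more, 8 were lower at 3 days, with a median of −0.42 that was −0.45 after length correction, and Itga2b, the alpha chain of the fibrinogen receptor, had 10.8, 8.34 and 11.2 RPKM. Itgb3, the beta chain of the same receptor, was the most abundant of the list on the mean of the 3 libraries, though not at 0 or 5 days. It was instead highest at 3 days with the deposited RPKM, at 10.2, 12.4 and 8.31 RPKM. Its log2 ratio of 0.27 there was −0.17 after length correction. The 11 mast cell, basophil and eosinophil markers summed to 3823, 3110 and 3758 RPKM, a sum carried by Prg2, the major basic protein of eosinophils, at 2771, 2202 and 2630 RPKM. Of the 10 averaging 1 RPKM or more, 5 were higher and 5 lower at 3 days, and Epx, eosinophil peroxidase, had 135, 205 and 305 RPKM. After length correction the list median at 3 days was 0.05 and Prg2 was at 0.11. The 10 stem and progenitor markers summed to 153, 108 and 114 RPKM, a sum led by Sox4 at 97.5, 68.3 and 53.1 RPKM, while the other 9 summed to 55.5, 39.5 and 60.5 RPKM. Of the 8 averaging 1 RPKM or more, 7 were lower at 3 days, with a median of −0.50, and 4 at 5 days, with a median of −0.05 that was −0.50 after length correction. For Bcl11a, the 13 B cell markers summed to 2512, 2038 and 1863 RPKM and the 9 plasmacytoid dendritic cell markers to 1043, 822 and 851 RPKM. These sums were led by Cd79a (827, 614 and 532 RPKM) and Ly6d (412, 311 and 250 RPKM). At 5 days 3 of 13 B cell markers were higher and 10 lower. Of 8 plasmacytoid markers averaging 1 RPKM or more, 2 were higher and 6 lower. Medians there were −0.23 and −0.34, or −0.39 and −0.60 after length correction, where Bcl11a was at −0.47. Of 18 cell-cycle genes, 18 were higher at 5 days with the deposited RPKM, 15 after TMM scaling and 16 after length correction, with medians of 0.80, 0.50 and 0.46. Late neutrophil markers were lower at 5 days in 11 of 11, with a median of −1.81. Every marker with a row had reads in at least 1 library, and the platelet gene Gp6, named after its values were seen, had 0 reads at 0 days.

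Genes with the most similar values over the 3 libraries were sought among 6161 genes averaging 10 RPKM or more, by the Euclidean distance between their log2 ratios at 3 and 5 days. With 3 libraries many genes have similar values, and between 20 genes (Nfe2) and 224 genes (Bcl11a) lay within a distance of 0.1 of each factor. The nearest to Gata1 were Exosc2, Mphosph6 and Itpa, to Klf1 Sf3a3, Strap and Ostc, and to Tal1 Zfyve19, Cep57 and Pdrg1. The nearest to Nfe2 were Cnn2, Fam65b and Slc2a6, and to Zfpm1 Scaf11, Stom and 0610009O20Rik. The nearest to Lmo2 were Ik, Clic1 and Ptp4a3, to Ldb1 Eif2d, N6amt2 and Trmt1, and to Bcl11a D4Wsu53e, Taf8 and Rbm22. Among them Stom, which encodes the red cell membrane protein stomatin, had 53.0, 69.8 and 102 RPKM.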

How the data were processed

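BM cells of C57BL/6 mice were profiled by RNA sequencing (TruSeq libraries, which do not mark strand, on an Illumina HiSeq). The authors deposited 3 tables, each for a pair of time points, with whole-number read counts per gene and RPKM. The deposited RPKM equal the count divided by gene length and library total for all 8 genes. Cufflinks is named for quantitation by the authors, mm8 in the processing notes of the submitters, and the aligner is not given in the sources used here. The deposited log2 ratios, p-values and false discovery rates of the authors' own comparisons were not used.

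Groups were taken from sample titles. Ratios are log2(RPKM + 0.1), so a fold change of a low gene is understated. Intervals of counts are exact Poisson, those of ratios exact Clopper-Pearson and those of gene-to-gene ratios conditional exact odds ratios. Genes counted at the 2-fold limit had at least 1 RPKM in either library. Scaling alternatives were edgeR 4.0.16 TMM, DESeq2 1.42.0 median-of-ratios (factors only), totals without the 100 most abundant genes, and a lowess trend on log2 length (span 0.3, statsmodels 0.14.6). The ratio script was tested on simulated data. Symbols with several rows, 232 in all, were represented by the row of highest mean RPKM.

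The 8 genes and all lists were chosen with earlier results of these data known. Named were the 8 genes, genes from among the 3 most abundant of each list (1 of the red cell membrane list is not reported here), any gene of the partner, regulator, antagonist and paralogue lists, and the 3 nearest genes in value to each factor. Others are said to have been named after their values were seen. Hbb-bt, Ahsp, Gata6, Ly6g and Azu1 were not analysed here.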

Additional observations from a re-analysis of the deposited data

How the results depend on the processing

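No paired analysis was possible because each time point has 1 library, and for the same reason no replicate could be left out. The median log2 ratio of the 8 factors at 5 against 0 days was 0.16 with the deposited RPKM, −0.15 with TMM factors, −0.14 with median-of-ratios factors, −0.043 when the 100 most abundant genes were left out of the totals and −0.067 after the length trend was taken out. Between 5 and 3 days it was 0.38, and 0.16 with TMM factors, 0.17 with median-of-ratios factors and 0.13 with the length trend removed. With a limit of 1.5-fold in place of 2-fold, 1 factor in place of 0 was higher at 5 against 0 days. The median of the factors minus that of the late erythroid genes was −0.003 at 3 days, −0.12 without the globin genes and −0.19 with the length trend removed, and at 5 days it was 0.19 and 0.038 without the globin genes. Of the 24 ratios of single factors, 17 moved beyond their counting interval with TMM factors, 17 with median-of-ratios factors, 14 without the 100 most abundant genes, 19 after the length trend was taken out and 0 with a pseudocount of 1 or 0.01. After length correction, a setting added for gene-to-gene ratios after seeing the data, Tal1 and Bcl11a turned from higher to lower relative to Gata1 at both later times, as did Gata2 at 3 days and Fli1 at 5 days, the latter also relative to Klf1. Why the scalings differ was not tested. With 438 or more reads per value, depth gave narrower intervals than most shifts between scalings.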

Other observations

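Relatives of the 8 factors were also read from the tables. Klf2, a relative of KLF1 that acts in lymphocytes, monocytes and endothelium, had 1147, 617 and 92.8 RPKM at 0, 3 and 5 days. Its log2 ratio at 5 days was −3.63 with the deposited RPKM and −3.74 with the length trend removed. Of the 10 relatives averaging 1 RPKM or more, Klf2 was the 1 (10%) at least 2-fold lower with the deposited RPKM, beside 5.91% of all genes. TMM scaling gave 4 such relatives and length correction 2. Klf3, a repressor of CACCC-box genes, had 17.3, 30.7 and 32.4 RPKM, and Klf4, a myeloid factor, had 45.7, 57.4 and 49.1 RPKM. Lmo1, a relative of LMO2 known from T cell leukaemia, had 20.0, 12.8 and 10.3 RPKM, from 355, 222 and 184 reads. Gata3, the T cell GATA factor, had 2.45, 1.22 and 1.31 RPKM, from 124, 60 and 66 reads. Tal2, Lmo3, Ldb2, Gata4 and Zfpm2 had at most 3 reads in any library. Among 11 markers of the macrophages on which erythroblasts mature, 8 were higher at 3 days, with a list median of 0.44 beside 0.10 for all genes. At 5 days the list median was 0.29 beside 0.31 for all genes, and −0.01 after TMM scaling. After length correction 11 were higher at 3 days and 9 at 5 days, with medians of 0.28 and 0.21. Of 5 promyelocyte markers with a row, 5 were higher at 5 days with the deposited RPKM and 4 after TMM scaling, with medians of 0.45 and 0.14. After length correction 5 were higher, with a median of 0.68.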
